A study of Mus musculus with 6 samples.

Results

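The transforming growth factor beta (TGF-beta) pathway was followed through 9 of its core genes in cultured MC38 cells, a mouse tumour line labelled as colon adenocarcinoma. They are the ligands Tgfb1, Tgfb2 and Tgfb3, the receptors Tgfbr1 and Tgfbr2, and the signal transducers Smad2, Smad3, Smad4 and Smad7. The genes were picked by symbol as components of the pathway, with earlier results of these data known, and all 9 were found among the 24181 genes of the count table. The series has 6 samples in 2 groups, 3 of MC38 cells that express STING-N153S, a substituted form of the innate immune adaptor STING, and 3 of parental MC38 cells of the WT genotype. Both groups carry the MC38 background, and no treatment is given for either. How STING-N153S was introduced, and whether its cells are 1 clone or a pool, was not found in the labels. Data of the STING-N153S group were not analysed here, since more columns carry a name other than wild type than the group has samples, and no name says which are its own. All values below are therefore from the 3 parental libraries, so the groups are not compared.

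TGF-beta ligands are secreted in a latent form, and once released they bind the type II receptor TGFBR2, which then recruits and phosphorylates the type I receptor TGFBR1. The activated type I receptor phosphorylates SMAD2 and SMAD3, which join SMAD4 and enter the nucleus to regulate transcription, while SMAD7 is induced by the pathway and blocks the receptor. In the intestine the pathway restrains epithelial growth, and in colorectal carcinoma it is often disabled in the tumour cells by mutation of receptor or SMAD genes, while in mesenchymal cells it drives matrix production.

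RNA was measured by 3'-end sequencing, in which fragments from the 3' end of each cDNA are counted. Levels are CPM, which set the counts of a gene against the total of their library, and means are reported with the SD over the libraries (n = 3). A 3'-end count is not proportional to transcript length, so levels of different genes were compared in CPM without division by length. How well each 3' end was captured and annotated also sets such a level, and was not tested. In a bulk library, fewer cells expressing a gene and less RNA per cell cannot be told apart. Parental replicates 1 to 3 held 3358908, 4020023 and 3210024 counts. Against the labelled cell type, 1 of 7 intestinal epithelial markers analysed reached 1 CPM, Axin2 at 2.19 ± 0.27 CPM, and the keratin gene Krt8 had 1 count over the 3 libraries. The summed level of those 7 markers was 2.24 to 2.80 CPM, and that of 7 fibroblast markers 173 to 197 CPM. Of the fibroblast markers 4 of 7 reached 1 CPM, and Col3a1 (115 CPM) and Dcn (52.1 CPM) made up most of the sum. Pdgfra had 12.8 CPM, Col1a1 3.58 CPM, Pdgfrb 0.667 CPM and Lum 1 count. Myeloid, lymphocyte and endothelial markers summed to 22.9 to 23.5 CPM, 0 to 0.312 CPM and 0.312 to 1.19 CPM. Cd14, at 22.1 CPM, made up most of the myeloid sum, and Csf1r, Lyz2 and C1qa had 0 counts.

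The stretch upstream of an annotated start is shown for the most and the least counted ligand and for both receptors, because each pair differs in level within its family. The sequences are those of RefSeq on GRCm38.p6, read 5′ to 3′ on the gene's own strand, and each holds the 250 bases before the start. Capitals mark matches, on either strand, to the GC box GGGCGG, the SMAD-binding box CAGAC or the TATA box TATAAA, and no matches overlapped.
Tgfb1, chr7:25686752-25687001, plus strand: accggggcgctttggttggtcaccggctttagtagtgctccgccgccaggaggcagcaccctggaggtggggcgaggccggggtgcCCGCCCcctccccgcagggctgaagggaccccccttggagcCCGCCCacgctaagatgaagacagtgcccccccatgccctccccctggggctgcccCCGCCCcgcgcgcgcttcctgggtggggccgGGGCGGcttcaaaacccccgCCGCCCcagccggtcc
Tgfb2, chr1:186705990-186706239, minus strand: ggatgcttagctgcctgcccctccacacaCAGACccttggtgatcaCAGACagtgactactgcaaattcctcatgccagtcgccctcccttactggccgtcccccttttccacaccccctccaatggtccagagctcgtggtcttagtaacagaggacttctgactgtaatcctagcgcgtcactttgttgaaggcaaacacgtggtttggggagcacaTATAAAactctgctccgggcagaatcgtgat
Tgfbr2, chr9:116175364-116175613, minus strand: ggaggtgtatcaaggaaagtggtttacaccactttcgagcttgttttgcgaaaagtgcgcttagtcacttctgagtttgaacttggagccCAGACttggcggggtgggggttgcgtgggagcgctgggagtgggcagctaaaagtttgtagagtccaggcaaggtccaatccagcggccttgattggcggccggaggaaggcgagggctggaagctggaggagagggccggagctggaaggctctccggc
Tgfbr1, chr4:47352972-47353221, plus strand: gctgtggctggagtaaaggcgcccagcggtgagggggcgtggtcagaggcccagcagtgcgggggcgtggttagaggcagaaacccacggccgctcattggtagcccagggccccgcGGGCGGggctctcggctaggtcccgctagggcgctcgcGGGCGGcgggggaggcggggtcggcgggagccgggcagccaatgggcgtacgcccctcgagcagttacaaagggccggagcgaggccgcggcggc

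The Tgfb1 window had a G and C content of 75.2%, with 5 GC boxes and no match to the other motifs. The Tgfb2 window had a content of 53.6%, with 2 SMAD boxes, 1 TATA box and no GC box. Of the receptors, Tgfbr2 had 58.4% and 1 SMAD box, and Tgfbr1 had 74.8% and 2 GC boxes. Among the windows shown, a GC-rich window stood before the well counted Tgfb1 and before the little counted Tgfbr1. The window before a second annotated start of Tgfbr1 had 52.8%, 1 SMAD box and no GC box. Smad3, also little counted, had 69.2% and 2 GC boxes. A link between windows and level was not tested. Among all 32841 windows of this length, the median content was 52.4%, and 32.7% held a GC box, 42.2% a SMAD box and 12.4% a TATA box. These matches describe letters in a window and not binding. A gene may also start elsewhere, as the Tgfb2 window lies inside the gene's RefSeq span.

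The ligands were dominated by Tgfb1 (chromosome 7, 25687002 to 25705077, GRCm38), which encodes the TGF-beta isoform best known for its action on immune cells. Tgfb1 had 101, 110 and 100 counts in parental replicates 1 to 3, which is 30.1, 27.4 and 31.2 CPM, averaging 29.5 ± 1.95 CPM (SD, n = 3). The 3 libraries lay close together, and the highest was 1.14 times the lowest. Tgfb3 (chromosome 12, 86056743 to 86079041) had 10, 25 and 16 counts, or 2.98, 6.22 and 4.98 CPM, averaging 4.73 ± 1.64 CPM (SD, n = 3). Tgfb2 (chromosome 1, 186622787 to 186709697) had 5, 12 and 8 counts, or 1.49, 2.99 and 2.49 CPM, averaging 2.32 ± 0.76 CPM (SD, n = 3). Both minor ligands were lowest in replicate 1 and highest in replicate 2. Their 3 libraries together held 51 and 25 counts, so that counting alone gives exact Poisson 95% intervals of 3.59 to 6.33 CPM for Tgfb3 and 1.53 to 3.49 CPM for Tgfb2. Tgfb3 lies across from Ttll5 on the opposite strand, which had 90 counts over the 3 libraries. The sources used here do not say whether counting used strand, so reads of this pair may not be told apart.

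Among all counts of the 3 ligands, Tgfb1 took 87.1%, 74.8% and 80.6% in replicates 1 to 3, a mean of 80.8 ± 6.12% (SD, n = 3). The exact (Clopper-Pearson) 95% interval over the pooled counts ran from 76.0% to 84.2% and covers counting error only. Tgfb3 took 12.8 ± 4.19% and Tgfb2 6.31 ± 1.93% (SD, n = 3). Between the minor ligands, Tgfb3 held 66.7%, 67.6% and 66.7% of the counts, and the pooled interval of 55.4% to 77.5% stayed above an equal split. The summed level of the 3 ligands was 36.6 ± 2.05 CPM (SD, n = 3).

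**Figure D1:**
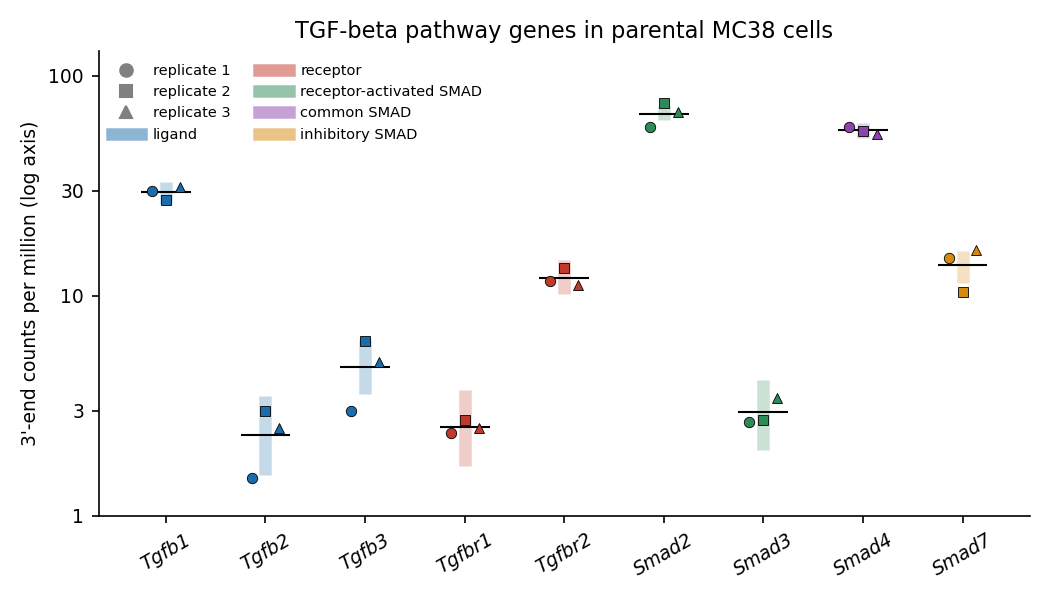
Level of each of the 9 genes in parental MC38 cells, in 3'-end CPM on a log axis; symbols are the 3 libraries, black lines their mean and shaded bars the exact 95% Poisson interval of the pooled counts. Smad2 and Smad4 stood highest, at means of 67.2 and 56.5 CPM, and Tgfb2, Tgfbr1 and Smad3 lowest, between 2.32 and 2.95 CPM.

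Of the receptors, the type II receptor was counted more than the type I receptor. Tgfbr2 (chromosome 9, 116087695 to 116175363), which encodes the ligand-binding type II kinase, had 39, 54 and 36 counts. These are 11.6, 13.4 and 11.2 CPM, averaging 12.1 ± 1.18 CPM (SD, n = 3). Tgfbr1 (chromosome 4, 47353222 to 47414926), which encodes ALK5, the type I kinase that phosphorylates SMAD2 and SMAD3, had 8, 11 and 8 counts. These are 2.38, 2.74 and 2.49 CPM, averaging 2.54 ± 0.18 CPM (SD, n = 3). No library of Tgfbr1 came near the lowest of Tgfbr2. Tgfbr2 took 83.0%, 83.1% and 81.8% of the counts of the pair, and the pooled 95% interval was 75.8% to 88.3%. The 3 libraries of Tgfbr1 share 27 counts, for which counting noise between libraries gives an SD of 33.3% of the mean. The SD seen, 7.15% of the mean, was smaller and understates the uncertainty of that level. Its exact Poisson interval was 1.68 to 3.71 CPM.

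The receptor-activated SMADs were counted very unequally. Smad2 (chromosome 18, 76241090 to 76311748) had 196, 301 and 219 counts, or 58.4, 74.9 and 68.2 CPM, averaging 67.2 ± 8.31 CPM (SD, n = 3), the highest of the 9 genes. Smad3 (chromosome 9, 63646766 to 63757994) had 9, 11 and 11 counts, or 2.68, 2.74 and 3.43 CPM, averaging 2.95 ± 0.42 CPM (SD, n = 3). SMAD3 binds DNA directly, while the main splice form of SMAD2 does not. Smad2 made up 95.6%, 96.5% and 95.2% of the counts of the pair, with a pooled 95% interval of 94.2% to 97.2%, and the highest library of Smad3 was far below the lowest of Smad2.

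Smad4 (chromosome 18, 73634790 to 73703791), the common partner of the receptor-activated SMADs and a tumour suppressor in the human colon, had 197, 226 and 175 counts. These are 58.7, 56.2 and 54.5 CPM, averaging 56.5 ± 2.08 CPM (SD, n = 3), and the libraries were nearly level. Its share among the counts of Smad2, Smad3 and Smad4 was 49.0%, 42.0% and 43.2%. The inhibitor Smad7 (chromosome 18, 75367365 to 75395935) had 50, 42 and 52 counts, or 14.9, 10.4 and 16.2 CPM, averaging 13.8 ± 3.01 CPM (SD, n = 3). Replicate 2, the highest for Smad2, was the lowest for Smad7. Smad7 held 93.1 ± 2.28% of the counts that it shared with the other inhibitory SMAD, Smad6, which acts mainly on the bone morphogenetic protein (BMP) branch and had 5, 2 and 4 counts. Smad7 was also above Smad3 in all 3 libraries, with 82.3% of their pooled counts (95% interval 75.8% to 87.6%). Smad2, Smad4 and Smad7 lie within 2.68 Mb of each other on chromosome 18, and 2 further members, Tgfbr2 and Smad3, share chromosome 9 at a distance that spans 52.5 Mb.

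**Figure D2:**
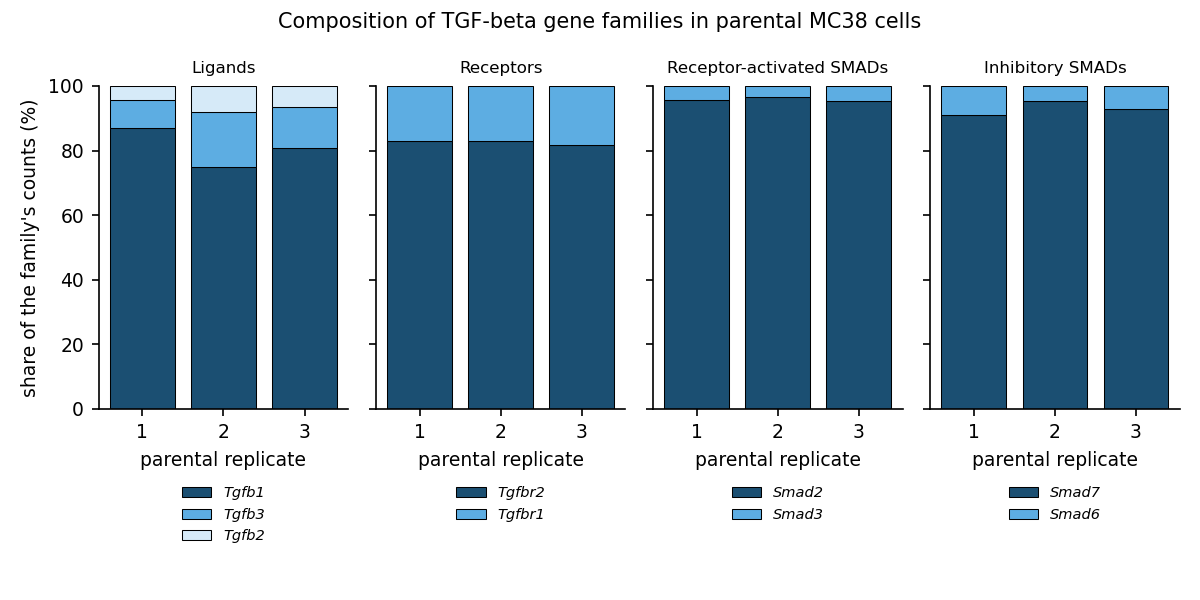
Share of each gene in the counts of its family, in percent, for parental replicates 1 to 3; bars start at 0 and add up to the family's counts in that library. A single gene held most counts in each family, Tgfb1 with 74.8% to 87.1%, Tgfbr2 with 81.8% to 83.1%, Smad2 with 95.2% to 96.5% and Smad7 with 90.9% to 95.5%.

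In descending order of mean CPM the genes ran Smad2, Smad4, Tgfb1, Smad7, Tgfbr2, Tgfb3, Smad3, Tgfbr1 and Tgfb2. Neighbours in this order were compared by the share of the higher gene in their pooled counts, with an exact 95% interval for counting error. Smad4 stood above Tgfb1 (65.8% of the pair, interval 62.6% to 68.9%), Tgfb1 above Smad7 (68.4%, 63.9% to 72.6%) and Tgfbr2 above Tgfb3 (71.7%, 64.5% to 78.1%), each in 3 of 3 libraries. Smad2 held 54.5% of its pair with Smad4 (51.8% to 57.2%) but was above it in 2 of 3 libraries, and without replicate 2 the interval was 49.2% to 56.3%. Tgfb3 held 62.2% of its pair with Smad3 (50.8% to 72.7%), and the interval included an equal split without replicate 2 (41.1% to 71.1%) and without replicate 3 (49.6% to 76.2%). The intervals also included an equal split for Smad7 and Tgfbr2 (46.6% to 58.8%), for Smad3 and Tgfbr1 (39.9% to 66.7%) and for Tgfbr1 and Tgfb2 (37.6% to 66.0%). The order of those neighbours was not resolved at this depth.

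Against the whole table, all 9 members reached a mean of 1 CPM, as 49.5% of all genes did, and 5 of 9 reached 10 CPM, as 31.2% of all genes did. None had 100 CPM or more, which 8.54% of all genes reached. The median member stood at 12.1 CPM and the median gene at 0.941 CPM. By rank among the 24181 genes, Smad2 was number 2872, Smad4 3244, Tgfb1 4816 and Tgfb2 10405. The summed level of the 9 genes was 183, 197 and 195 CPM in replicates 1 to 3.

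The 3 parental libraries were compared to see whether the spread of each gene was larger than counting noise. A chi-square test of counts was run over all genes for which at least 5 counts were predicted per library, with Benjamini-Hochberg adjustment. It compares libraries and not conditions. At an adjusted p under 0.05, 0 of 9 members varied, beside 2.8% of all 11118 genes tested. That background rested largely on replicate 3: 311 genes passed with it, and 61 of 11126 tested without it, again with 0 of the 9 members. At an unadjusted p under 0.05, 1 of 9 members passed, beside 1466 of the 11118 genes tested. That member was Smad2, at 58.4, 74.9 and 68.2 CPM, with a raw p of 0.0348 and an adjusted p of 0.322 by the chi-square test. An exact multinomial test of the same counts gave a raw p of 0.0336 for Smad2, and none of the other 8 genes was under 0.05. Smad7 came next, with an exact p of 0.0688 and an adjusted chi-square p of 0.455. Its highest library was 1.55 times its lowest, against 1.28 times for Smad2. The ligands Tgfb2 and Tgfb3 spanned 2.01-fold and 2.09-fold between libraries, with adjusted p of 0.806 and 0.571 by the chi-square test, so that at these counts a ratio of 2 was not separable from counting noise. These p-values measure the spread between these samples. The deposited IDs of the libraries carry the tag BR with a replicate number, but no label states that separate cultures were used. Technical and biological spread can therefore not be told apart.

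**Figure D3:**
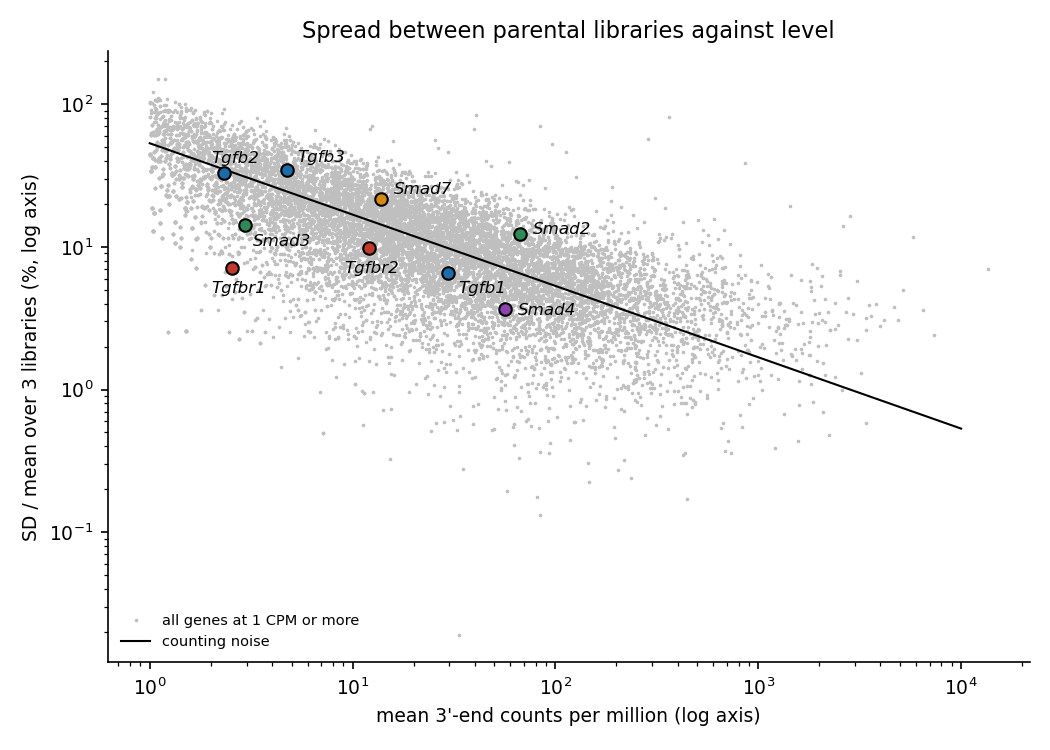
Spread between the 3 parental libraries (SD in percent of the mean, log axis) against mean 3'-end CPM (log axis) for the 9 genes (coloured and named) and all genes at 1 CPM or more (grey); the line is the spread that counting noise alone gives at the mean library size. Tgfb3 (34.6%), Smad7 (21.8%) and Smad2 (12.4%) lie above the line and the other 6 below it, from Smad4 (3.68%) to Tgfb2 (32.8%).

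The genes around the pathway were read from 8 lists that hold 132 genes, of which 119 were in the count table and were analysed. Fractions and medians of a list cover its analysed genes only. Of 17 genes listed as other ligands of the family, 10 were analysed. Inhbb, Nodal, Mstn, Bmp4, Bmp5, Bmp7 and Lefty2 were not in the count table. Of the 10, 5 reached a mean of 1 CPM and 3 of them 10 CPM. The 10 include Bmp1, which encodes a protease and not a ligand, at 6.79 ± 0.21 CPM (SD, n = 3). Inhba, the subunit of activin A, which signals through SMAD2 and SMAD3 by its own receptors, had 152.7, 169.7 and 180.4 CPM, averaging 168 ± 13.9 CPM (SD, n = 3). It exceeded the 3 TGF-beta ligands together in every library, with 81.6%, 82.3% and 82.4% of their joint counts and a pooled 95% interval of 80.4% to 83.7%. Bmp2, a BMP ligand, had 23.1 ± 1.41 CPM and Gdf11 11.7 ± 0.72 CPM (SD, n = 3). Bmp6, Bmp8a and Lefty1 had 0 counts, which is under the floor of 3 counts, or 0.283 CPM over the 3 libraries.

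Of the 14 other receptors and co-receptors analysed, 9 reached 1 CPM. They were led by the pseudoreceptor Bambi with 35.3 ± 4.20 CPM, the BMP type I receptor Bmpr1a with 17.0 ± 0.41 CPM and the BMP type II receptor Bmpr2 with 14.8 ± 1.53 CPM (SD, n = 3). Tgfbr3, which encodes betaglycan and presents ligand to TGFBR2, had 51, 65 and 33 counts and a mean of 13.9 ± 3.15 CPM (SD, n = 3), close to that of Tgfbr2. Among the counts of Tgfbr1, Tgfbr2 and Tgfbr3, Tgfbr3 took 48.3 ± 4.82% and Tgfbr2 42.7 ± 3.62% (SD, n = 3), and the pooled intervals of 43.1% to 54.6% and 36.7% to 48.1% overlapped. The activin type I receptor Acvr1b had 1, 1 and 2 counts, or 0.390 ± 0.203 CPM, and the activin type II receptor Acvr2a 11.7 ± 3.17 CPM (SD, n = 3). In all 3 libraries Tgfbr1 was counted less than Tgfbr2, and Acvr1b less than Acvr2a. The counts of the BMP pair were close, with 58, 69 and 53 for Bmpr1a and 53, 63 and 42 for Bmpr2. No interval for counting error was computed for that pair, so its order is not called. Acvrl1, Acvr1c and Amhr2 had 0 counts, under the same floor of 0.283 CPM.

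Of the 4 other SMADs, 3 reached 1 CPM. The list was led by Smad1, a receptor-activated SMAD of the BMP branch, with 85.1, 81.3 and 97.5 CPM and a mean of 88.0 ± 8.45 CPM (SD, n = 3). Smad5 followed with 14.3 ± 3.10 CPM, and Smad6 had 1.08 ± 0.52 CPM (SD, n = 3). Smad2 and Smad3 together took 37.2%, 44.96% and 39.3% of the counts of all receptor-activated SMADs. Their summed level was 70.1 ± 8.40 CPM, and that of Smad1, Smad5 and Smad9 102.9 ± 7.78 CPM (SD, n = 3). The values of the sums did not overlap between the branches, with a highest library of 77.6 CPM for Smad2 and Smad3 and a lowest of 95.02 CPM for the BMP branch.

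Of 15 genes of ligand latency and activation analysed, 11 reached 1 CPM and 9 reached 10 CPM. The integrin subunit Itgb1 had 488 ± 12.4 CPM, the membrane protease Mmp14 241 ± 7.36 CPM and Thbs1, which encodes the latent TGF-beta activator thrombospondin 1, 54.5 ± 14.8 CPM (SD, n = 3). Thbs1 stood at 58.9, 66.7 and 38.0 CPM and was the only one of the 11 genes of this list tested that varied between the libraries, with an adjusted p of 0.000156 by the chi-square test. Without replicate 3, its lowest library, the adjusted p was 0.81, the upper end of a range that starts at 3.83e-05 over the 6 alternatives run. Of all 11118 genes tested, 2.8% varied with all 3 libraries. Ltbp1, which encodes a protein that tethers latent TGF-beta to the matrix, had 15.8 ± 2.89 CPM, the convertase Furin 18.3 ± 2.38 CPM and the integrin subunit Itgav 19.7 ± 3.64 CPM (SD, n = 3). The integrin subunit Itgb8, a partner of Itgav in activation of TGF-beta, had 0.832 ± 0.462 CPM (SD, n = 3), and Nrros, which holds latent TGF-beta on myeloid cells, had 0 counts.

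Regulators of SMADs were counted widely, with 24 of 25 analysed at 1 CPM or more and 21 of 25 at 10 CPM or more. The highest were Fkbp1a, which encodes the immunophilin FKBP12 that binds type I receptors, with 614 ± 13.8 CPM, the receptor-associated protein gene Strap with 415 ± 3.69 CPM and the ubiquitin ligase gene Stub1 with 209 ± 12.1 CPM (SD, n = 3). The ubiquitin ligase genes that partner SMAD7, Smurf1 and Smurf2, had 37.7 ± 4.25 and 24.6 ± 1.204 CPM, and the SMAD corepressor genes Skil and Ski 23.2 ± 1.31 and 11.02 ± 2.66 CPM (SD, n = 3). None of 24 tested varied between libraries by the adjusted chi-square test. Of 8 extracellular inhibitors analysed, 6 reached 1 CPM, led by the proteoglycan gene Dcn with 52.1 ± 5.48 CPM, Fstl1 with 30.3 ± 0.23 CPM and the BMP antagonist gene Grem1 with 15.8 ± 0.39 CPM (SD, n = 3).

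All 13 genes of SMAD-independent TGF-beta signalling reached 1 CPM and 11 of them 10 CPM, led by Rhoa with 243 ± 15.4 CPM, Ppp2r2a with 126 ± 5.62 CPM and Rock1 with 120 ± 14.1 CPM (SD, n = 3). Map3k7, which encodes the kinase TAK1, was the only one that varied between the libraries, with 31.3, 29.6 and 15.9 CPM and an adjusted p of 0.00732 by the chi-square test. Replicate 3 was again the lowest, and without it the adjusted p was 0.959, the upper end of a range that starts at 0.00286 over the 6 alternatives run. This 1 of 13 genes tested stands beside 2.8% of all 11118 genes tested.

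Among 37 analysed genes that TGF-beta is known to induce in various cells, 27 reached 1 CPM and 20 reached 10 CPM. The matricellular gene Ccn1 had 389 ± 15.8 CPM, the protease inhibitor gene Timp1 384 ± 24.2 CPM and the AP-1 subunit gene Junb 146 ± 3.36 CPM (SD, n = 3). Known SMAD target genes of the same list differed widely in level. Examples are Pmepa1, at 74.0 ± 1.48 CPM (SD, n = 3), and Tgfbi, with 2 libraries at 1 count and 1 at 0. The cell cycle inhibitor gene Cdkn2b had 54.1 ± 5.66 CPM (SD, n = 3). The 5 transcription factor genes of epithelial to mesenchymal transition on the list were all above 10 CPM, with Twist1 at 77.9 ± 1.92 CPM, Snai2 at 44.6 ± 2.97 CPM, Snai1 at 30.2 ± 4.99 CPM, Zeb1 at 26.03 ± 4.01 CPM and Zeb2 at 22.8 ± 3.09 CPM (SD, n = 3). The smooth muscle genes Acta2 and Tagln had 8.39 ± 0.84 and 0.535 ± 0.399 CPM (SD, n = 3). All these genes answer to other signals too, and no library without TGF-beta signalling was analysed, so their levels do not measure the pathway's activity. None of 26 tested varied between the libraries by the adjusted chi-square test.

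**Figure D4:**
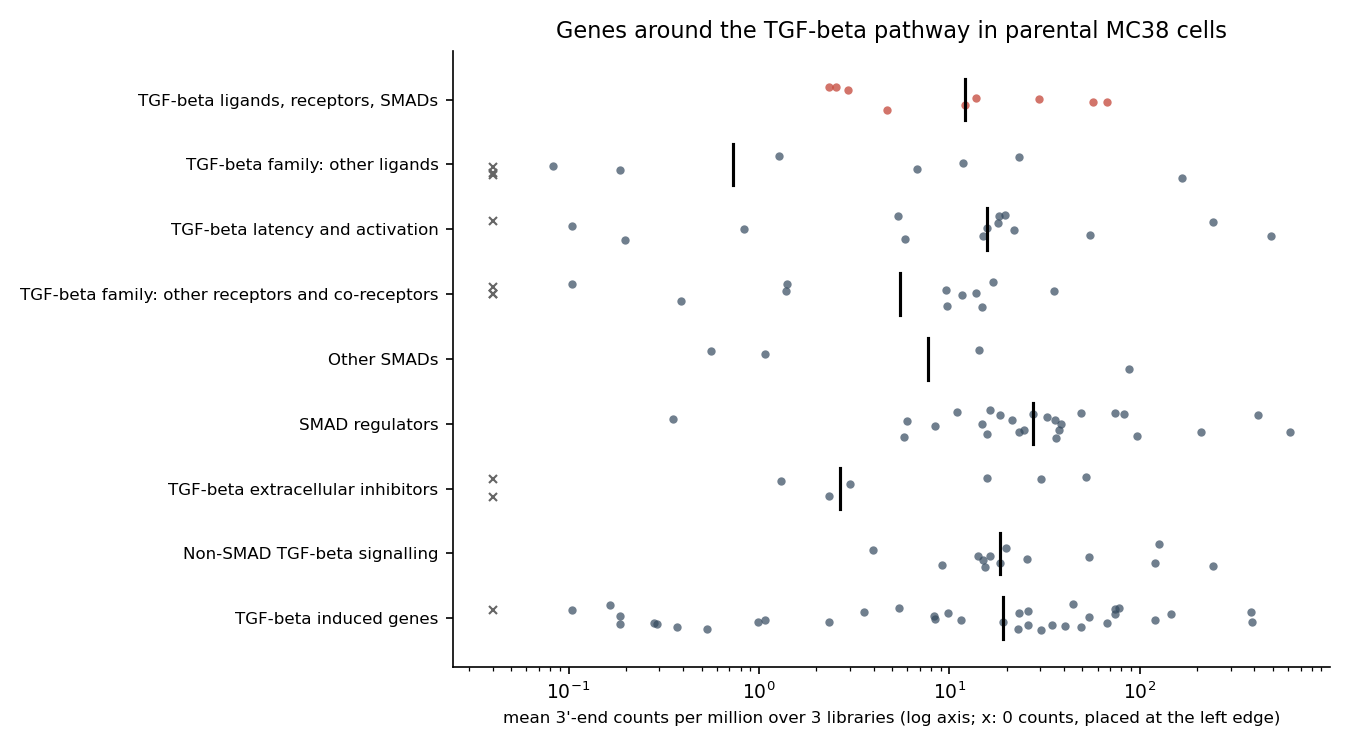
Mean 3'-end CPM (log axis) of the 9 members (red, top row) and of the analysed genes of 8 surrounding lists (dark) in parental MC38 cells; vertical lines are medians and crosses at the left edge are genes with 0 counts. The median is highest in the SMAD regulators, at 27.6 CPM, with the members at 12.1 CPM. It is lowest in the list of other ligands, which includes Bmp1, at 0.732 CPM.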

How the data were processed

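The deposited counts are whole numbers per gene. Per the file headers, the authors ran SCRB-Seq (barcoded 3'-end libraries with molecular identifiers), aligned untrimmed reads to GRCm38 with STAR 2.7.5b, used GENCODE release M25, and processed the data with Picard 2.18.26 and Drop-seq tools 1.12. The sources used here do not say whether molecular identifiers were collapsed or how reads of several genes were handled, so intervals and floors cover counting error only.

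The deposited annotation numbers 3 columns as wild type, and these were matched by genotype and replicate number to the parental samples. The 6 other columns, in 2 sets of 3, could not be tied to the STING-N153S samples and were not used. The planned comparison of the groups was not run.

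Counts were divided by library totals to give CPM. The floor is 3 counts, or 0.746 to 0.935 CPM in a library. The chi-square test between libraries set the counts against proportions from DESeq2 1.42.0 size factors. TMM factors came from edgeR 4.0.16. Exact intervals are at 95%. R 4.3.3, Python 3.11.15, pandas 2.3.3 and scipy 1.17.1 were used.

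The members and lists were chosen with earlier results of these data known. The rule for named genes takes the 9 members and, per list, the 3 with the highest mean CPM. Other list genes, the family shares and the exact multinomial test were chosen after values were seen. No gene of similar pattern is named, since 3 libraries of 1 group cannot show one. Positions come from RefSeq (GRCm38.p6). Upstream windows were read for 5 of the 9 members.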

Additional observations from a re-analysis of the deposited data

How the results depend on the processing

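No paired analysis was possible because no library of the STING-N153S group was analysed. The alternatives fixed for the comparison of STING-N153S with parental cells (DESeq2, no filter, the replicate number as a factor, leaving out libraries of each group) were not run, since no column was tied to the STING-N153S samples.

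The number of genes varying between parental libraries, 311, was 61 without parental replicate 3, and 61 to 274 over the settings that leave out 1 library. No member tested varied under any of the 6 alternatives run. An expected count of at least 10 left 6 members tested, and each other setting tested all 9. Without replicate 3, Smad2 and Tgfb3 had an unadjusted p under 0.05 (0.0078 and 0.0458 by the chi-square test of counts). Their adjusted p by that test were 0.369 and 0.584. By the same test, only Smad7 had an unadjusted p under 0.05 without replicate 1 (0.0334, adjusted 0.358), and no member had one without replicate 2. The share of all genes at that level was not counted in these settings. With all 3 libraries it was 1466 of 11118 tested. Of 54 member levels under other scalings or fewer libraries, 50 moved by less than 1 SD. The 4 others rose when the 20 highest genes were taken out of the totals, by construction, to 32.5 CPM for Tgfb1, 2.79 CPM for Tgfbr1, 13.3 CPM for Tgfbr2 and 62.2 CPM for Smad4. Leaving out 1 library gave Smad2 52.7% to 56.5% of its pair with Smad4, and Tgfb3 56.5% to 65.1% of its pair with Smad3. All 60 counts of genes at a minimum level stayed within 1.5 times the values above, and all 42 family shares within 1 SD. Leaving out 1 of 3 libraries cannot move a mean by 1 SD. That outcome was therefore fixed in advance for the shares and for member levels from fewer libraries. Tgfb2, Tgfbr1 and Smad3, with 25 to 31 counts in all, are limited by depth.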
